A study of Mus musculus with 9 samples.

Results

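The Cyp2c genes of the mouse encode cytochrome P450 enzymes, and 10 of them (Cyp2c29, Cyp2c37, Cyp2c39, Cyp2c44, Cyp2c50, Cyp2c55, Cyp2c67, Cyp2c68, Cyp2c69 and Cyp2c70) were followed in liver RNA. They were picked by gene name from a table of 52151 gene entries, of which 26345 had a known transcript and a name. The choice rested on paralogs of a single gene cluster that differed in opposite directions between alcohol-fed and pair-fed mice, so the values of that comparison are given as a description without a test. The table held 18 entries with the symbol of a member, and each gene was read from its entry with a known transcript. The other 8 entries were assembled from these libraries alone and carried the symbols Cyp2c37, Cyp2c39 and Cyp2c70.

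The livers came from mice labelled 8 weeks of age, with 3 libraries in each of 3 groups. Pair-fed (PF) mice received an isocaloric control liquid diet for 5 weeks, and alcohol-fed (AF) mice received the Lieber-DeCarli diet, a liquid diet that carries ethanol. Mice of the third group (AF with MNA) received the Lieber-DeCarli diet and a daily intraperitoneal injection of MNA at 50 mg/kg, and the labels do not spell out this compound. The strain is labelled C57BL/6 in PF and AF and C57BL/7, C57BL/8 and C57BL/9 in the AF with MNA libraries, while the methods of the study give male C57BL/6J mice for PF and AF. No injection of the AF mice is described, so MNA and the injection cannot be told apart. No source says that the libraries of a group came from separate animals, and p-values then measure only the spread between these libraries, which may be technical.

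P450 epoxygenases insert an oxygen atom into a double bond of arachidonic acid and give epoxyeicosatrienoic acids, lipid mediators that soluble epoxide hydrolase turns into diols. Their electrons come from NADPH through cytochrome P450 reductase. In hepatocytes many Cyp2c genes are transcribed under HNF4A, and the nuclear receptors CAR (Nr1i3) and PXR (Nr1i2) raise some of them after drugs such as phenobarbital. Members of the family also oxidise drugs, retinoids, steroids and bile acids. All 10 genes carried the epoxygenase P450 pathway term in the annotation columns of the table, and 8 of them the arachidonic acid metabolism pathway (not Cyp2c67 and Cyp2c69).

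On mouse chromosome 19 of the build GRCm38, 9 of the 10 genes lay in a run of 14 protein-coding genes, all of them Cyp2c, from Cyp2c55 to Cyp2c70 (chr19:39007019-40187333, 1.18 Mb, GENCODE M21). Cyp2c44 lay 3.82 Mb further along, at chr19:44005022-44029208, and is named Cyp2c23 in that annotation. The coding sequences fell into 3 sets of close paralogs. Cyp2c29, Cyp2c38 and Cyp2c39 shared 89.1 to 94.2% of their bases. Cyp2c37, Cyp2c50 and Cyp2c54 shared 95.1 to 96.1%. Cyp2c67, Cyp2c68, Cyp2c69 and Cyp2c40, which lie next to each other, shared 92.2 to 97.7%. Every other pair shared 60.3 to 83.1%, and Cyp2c55, Cyp2c70 and Cyp2c44 had no close paralog (closest gene at 77.7%, 70.2% and 66.4%).

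**Figure D1:**
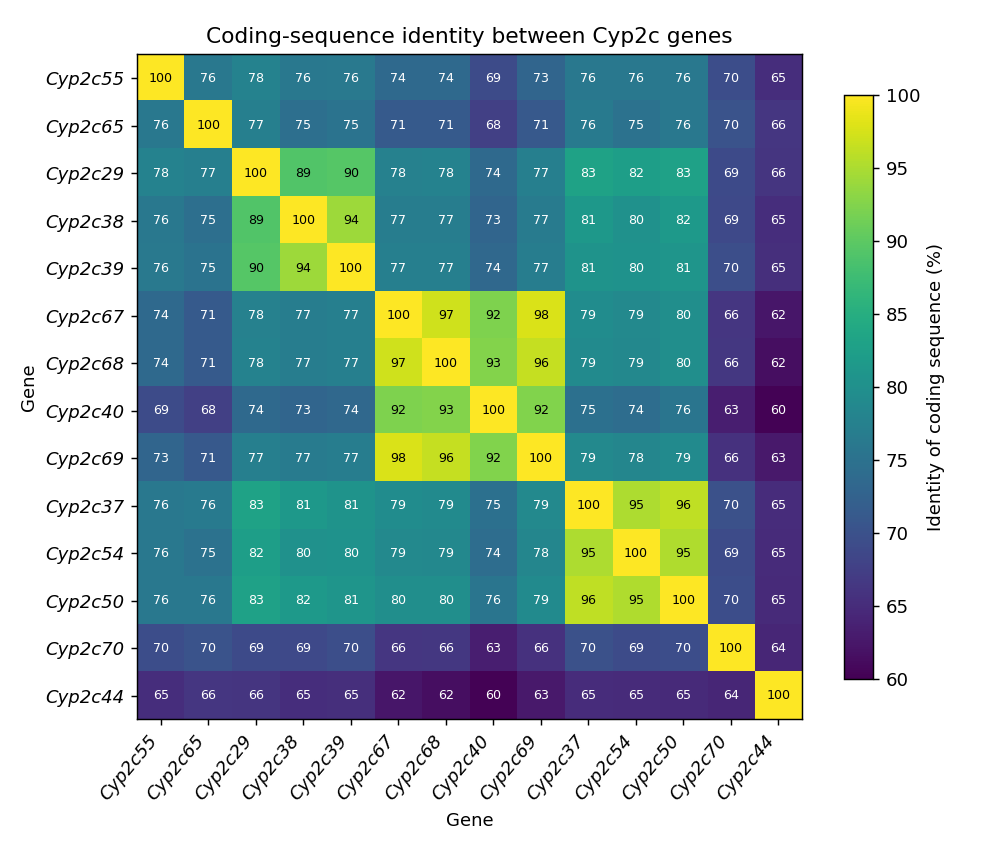
Percent of identical bases between the aligned coding sequences of 14 Cyp2c genes, with the genes in chromosomal order on both axes. The blocks of close paralogs are Cyp2c29, Cyp2c38 and Cyp2c39 (89.1 to 94.2%), the 4 adjacent genes from Cyp2c67 to Cyp2c69 (92.2 to 97.7%), and Cyp2c37, Cyp2c54 and Cyp2c50 (95.1 to 96.1%).

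The likeness of these genes bears on how well reads can be assigned. Of all 50-base windows of the coding sequence, 54.7% of Cyp2c67, 45.5% of Cyp2c68 and 60.1% of Cyp2c69 occurred in another Cyp2c gene without a mismatch, against 32.2% of Cyp2c37, 32.4% of Cyp2c50, 13.1% of Cyp2c39 and 0.6% of Cyp2c29. No window of Cyp2c55, Cyp2c70 or Cyp2c44 was shared. At 150 bases the shares were 15.6% in Cyp2c67 and 25.5% in Cyp2c69, and 4.1% in Cyp2c50. The level of each gene within the Cyp2c67 and Cyp2c37 sets is uncertain to the extent that shared reads were split between them.

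The start regions of 5 members are shown because they pair genes of close coding sequence that moved alike (Cyp2c37 and Cyp2c50) or apart (Cyp2c67 and Cyp2c68), beside the most abundant member of the AF libraries (Cyp2c29). Each is a window of 300 bases, mostly upstream, around the RefSeq start on the gene's strand (build GRCm38.p6). The intervals are chr19:39992174-39992473 (plus strand) for Cyp2c37, chr19:40089429-40089728 (plus) for Cyp2c50, chr19:39648993-39649292 (minus) for Cyp2c67, chr19:39741052-39741351 (minus) for Cyp2c68 and chr19:39286835-39287134 (plus) for Cyp2c29. Capitals mark matches to CAAAGTNCA, a form of the HNF4A site searched on both strands, and to TATAAA on the gene's strand.
Cyp2c37: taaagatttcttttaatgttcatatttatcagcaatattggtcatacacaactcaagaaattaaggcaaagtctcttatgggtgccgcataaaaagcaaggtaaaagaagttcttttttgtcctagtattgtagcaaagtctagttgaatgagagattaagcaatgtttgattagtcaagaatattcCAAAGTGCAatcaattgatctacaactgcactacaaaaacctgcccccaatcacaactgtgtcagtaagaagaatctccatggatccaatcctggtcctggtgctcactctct
Cyp2c50: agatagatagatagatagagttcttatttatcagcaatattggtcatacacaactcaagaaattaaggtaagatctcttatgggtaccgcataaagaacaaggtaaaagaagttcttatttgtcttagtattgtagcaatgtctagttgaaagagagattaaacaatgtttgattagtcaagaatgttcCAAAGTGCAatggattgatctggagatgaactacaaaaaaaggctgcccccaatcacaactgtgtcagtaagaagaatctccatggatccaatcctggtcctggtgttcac
Cyp2c67: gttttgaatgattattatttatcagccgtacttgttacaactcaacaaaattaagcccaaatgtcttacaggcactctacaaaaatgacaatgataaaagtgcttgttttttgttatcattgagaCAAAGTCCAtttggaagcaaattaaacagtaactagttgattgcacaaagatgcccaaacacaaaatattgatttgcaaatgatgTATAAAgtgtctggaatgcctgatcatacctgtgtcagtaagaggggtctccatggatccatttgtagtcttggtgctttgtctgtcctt
Cyp2c68: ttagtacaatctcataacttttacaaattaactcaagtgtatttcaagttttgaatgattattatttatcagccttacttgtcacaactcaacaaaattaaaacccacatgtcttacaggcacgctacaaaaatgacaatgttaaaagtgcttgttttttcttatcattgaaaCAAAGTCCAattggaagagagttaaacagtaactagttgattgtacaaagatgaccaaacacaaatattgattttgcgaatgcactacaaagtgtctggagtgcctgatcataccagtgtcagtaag
Cyp2c29: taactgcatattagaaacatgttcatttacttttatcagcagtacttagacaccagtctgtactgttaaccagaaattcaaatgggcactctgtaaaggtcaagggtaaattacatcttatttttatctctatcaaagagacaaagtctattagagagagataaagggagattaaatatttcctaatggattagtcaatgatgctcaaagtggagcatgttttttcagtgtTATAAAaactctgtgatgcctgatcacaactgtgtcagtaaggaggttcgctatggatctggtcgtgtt

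The letters CAAAGTNCA stood in 1.41% of 32851 RefSeq promoters of this length and in those of Cyp2c37, Cyp2c50, Cyp2c67, Cyp2c68, Cyp2c69 and Cyp2c70. Cyp2c37 and Cyp2c50 had the form with G at the variable base. Cyp2c67, Cyp2c68, Cyp2c69 and Cyp2c70 had CAAAGTCCA, found in 0.475% of all promoters. The windows of Cyp2c29, Cyp2c39 and Cyp2c55 held no match, and Cyp2c44 and Cyp2c54 were not in the promoter table. Members that were higher in AF (Cyp2c37, Cyp2c50 and Cyp2c70) and a member that was lower (Cyp2c67) both carried the element. TATAAA stood in 8.32% of all promoters, in Cyp2c29, Cyp2c55 and Cyp2c67 upstream of the start, and not in Cyp2c68, Cyp2c37 or Cyp2c50. It also stood across the start in a window of Cyp2c39 (-3 to 2) and after the start in Cyp2c69 (10 to 15). Where the aligned windows held a base in both genes, 89.5% of 295 bases were identical between Cyp2c37 and Cyp2c50 and 91.6% of 251 between Cyp2c67 and Cyp2c68. The windows of the latter pair are offset, with CAAAGTCCA beginning at -125 from the RefSeq start in Cyp2c67 and at -77 in Cyp2c68. These matches describe the letters and say nothing on binding.

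Gene levels are in FPKM, a count of fragments scaled to transcript length and library size, which allows genes to be compared per length. A log2 ratio is the log2 of the ratio of group mean FPKMs, and ± gives the SD of 3 libraries. As signs of library differences, AF replicate 3 and AF with MNA replicate 1 held more transcript signal from introns (summed FPKM of 9433 and 8934) than the other 7 libraries (2477 to 4937). Markers of hepatocytes (Alb, Ttr, Apoa1 and Cps1) summed to 14700 to 19980 FPKM in PF, 13190 to 20290 in AF and, with MNA, 18050 to 20380. No marker of Kupffer, stellate, sinusoidal endothelial or bile duct cells or of lymphocytes was at 0 in all libraries. The 4 sinusoidal endothelial markers summed to 15.8 to 17.8 FPKM in PF, 17.3 to 28.7 in AF and, with MNA, 22.7 to 26.6. Their part in the results below was not tested. In whole liver, fewer cells that express a gene and less RNA per cell cannot be told apart.

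The summed level of the 10 genes was 559 ± 18.3 FPKM in PF, 1422 ± 166 in AF and, with MNA, 1329 ± 220. The 3 PF libraries stood between 538 and 571 FPKM and the 6 others between 1171 and 1596. The makeup differed as well. Cyp2c29 gave 5.62 to 11.7% of the sum in PF, 30.6 to 35.0% in AF and, with MNA, 26.4 to 33.1%. Cyp2c67 gave 11.2 to 21.7% in PF, 1.09 to 1.74% in AF and, with MNA, 1.76 to 2.63%. The share of Cyp2c50 stayed within 15.8 to 32.1% in all libraries, and Cyp2c44 went from 17.4 to 21.1% in PF to 4.58 to 6.84% in AF.

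**Figure D2:**
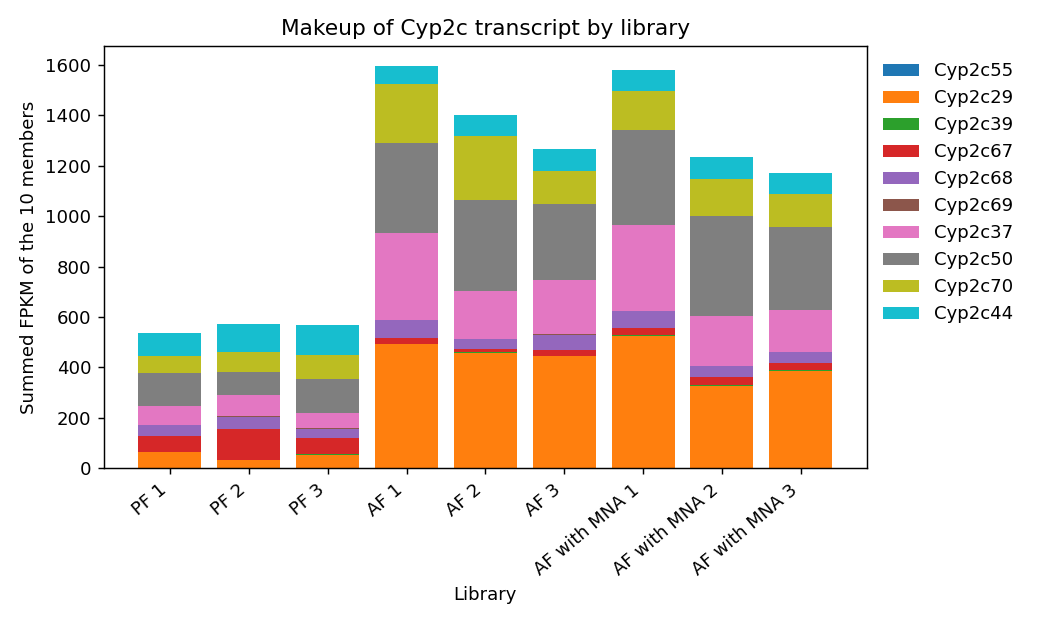
Summed FPKM of the 10 Cyp2c genes in each of the 9 libraries, stacked by gene. The PF bars reach 538 to 571 FPKM and the AF bars 1267 to 1596, with Cyp2c29 at 30.6 to 35.0% of the AF sum.

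The order of the genes by mean level changed between the diets. In PF the order was Cyp2c50 (119 FPKM), Cyp2c44 (107), Cyp2c67 (84.1), Cyp2c70 (80.6), Cyp2c37 (72.6), Cyp2c29 (49.6) and Cyp2c68 (42.6), and the libraries of each gene overlapped with those of the next. Cyp2c69 (1.80), Cyp2c39 (0.76) and Cyp2c55 (0.26) lay far below and did not overlap with their neighbours. In AF Cyp2c29 (463 FPKM) stood first and apart from Cyp2c50 (338). Cyp2c37 (252) overlapped with Cyp2c50 and Cyp2c70 (206). Cyp2c44 (81.3), Cyp2c68 (56.6) and Cyp2c67 (20.2) followed without overlap, and Cyp2c55 (2.02), Cyp2c39 (1.14) and Cyp2c69 (0.85) came last and overlapped. In AF with MNA the order was the same as in AF.

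The first comparison asked which of these genes differed in the liver with alcohol feeding. Between AF and PF, 5 members were higher in every AF library than in any PF library (Cyp2c29, Cyp2c37, Cyp2c50, Cyp2c55 and Cyp2c70) and 2 were lower (Cyp2c44 and Cyp2c67). Of all 12268 genes tested (mean level of 0.5 FPKM or more), 8.18% were higher and 10.1% lower without overlap. The median log2 ratio was 0.97 over the 10 members and -0.03 over all these genes. Since the members were chosen on this contrast, nothing is read from these counts.

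Cyp2c29, a phenobarbital-inducible epoxygenase of the liver, measured 63.0, 32.1 and 53.7 FPKM in PF, against 489, 457 and 443 FPKM in AF. The ranges lay far apart, and the AF mean was 9.33-fold the PF mean (log2 ratio 3.22). The entry also held transcripts of the pseudogene Cyp2c53-ps. Its close paralog Cyp2c39, known as a retinoic acid hydroxylase, measured 0.94, 0.66 and 0.68 FPKM in PF, against 2.00, 0.67 and 0.74 FPKM in AF. Only AF replicate 1 stood above the PF range of Cyp2c39, and without that library its log2 ratio went from 0.58 to -0.11. Within each library Cyp2c29 was 48.6 to 79.0 times Cyp2c39 in PF and 245 to 681 times in AF.

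Cyp2c37, which hydroxylates and epoxidises arachidonic acid, measured 72.7, 85.1 and 60.0 FPKM in PF, against 347, 192 and 216 FPKM in AF. All AF values stood above the PF values, with AF replicate 1 the highest, and the ratio of means was 3.47. Cyp2c50, an epoxygenase of the same set, measured 130, 90.1 and 137 FPKM in PF, against 358, 359 and 299 FPKM in AF. The groups were apart by a ratio of 2.84 with a narrower spread in AF than Cyp2c37. Over the 9 libraries the log2(FPKM + 1) values of Cyp2c37 and Cyp2c50 had a Pearson r of 0.88 as a description, in which the PF and AF difference is included.

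Cyp2c54, the third gene of that set and not a member, was tested. It measured 64.7, 72.3 and 67.9 FPKM in PF, against 244, 265 and 220 FPKM in AF, without overlap. It was upregulated 3.56-fold (log2 ratio 1.83, limma adjusted p = 0.0073 by Benjamini-Hochberg over all tested genes), and 0.326% of all genes had an adjusted p under 0.05. Cyp2c54 passed the unadjusted threshold under each alternative, but its adjusted p was 0.0583 with the replicate number as a block and 0.0895 with the library-size covariate and no moderation of the variance, under which 0 genes had an adjusted p under 0.05 in this comparison (1407 unadjusted). The entry of this gene held no annotation term in the table, although its level in AF was close to that of Cyp2c37. Reads shared among the 3 paralogs could not be separated further, and 26.9% of the 50-base windows of Cyp2c54 occurred in Cyp2c37 or Cyp2c50.

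Cyp2c70, which hydroxylates bile acids to muricholic acids in the mouse, measured 68.0, 81.6 and 92.4 FPKM in PF, against 231, 256 and 133 FPKM in AF. The groups did not overlap and AF replicate 3 stood nearest to PF, and the ratio was 2.56. Cyp2c55, known from the intestine and from induction by CAR and PXR ligands, measured 0.26, 0.16 and 0.36 FPKM in PF, against 1.98, 2.13 and 1.96 FPKM in AF. Its ratio of means was 7.78, and at this low level the difference on the log2(FPKM + 1) scale was 1.26.

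Cyp2c67 went the other way. It measured 64.4, 124 and 63.8 FPKM in PF, against 23.5, 15.3 and 22.1 FPKM in AF, and the PF mean was 4.15 times the AF mean (log2 ratio -2.05). The values did not overlap, and without the high PF replicate 2 the log2 ratio was -1.66. Its neighbour Cyp2c68, with 97.1% of coding bases alike, measured 43.3, 47.0 and 37.6 FPKM in PF, against 70.1, 37.1 and 62.6 FPKM in AF. AF replicates 1 and 3 stood above and AF replicate 2 just below the PF range (log2 ratio 0.41). The ratio of Cyp2c67 to Cyp2c68 within a library, which no scaling of libraries can change, was 1.49, 2.64 and 1.70 in PF and 0.335, 0.411 and 0.353 in AF.

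Cyp2c69 measured 1.2, 2.12 and 2.08 FPKM in PF, against 0.77, 0.52 and 1.26 FPKM in AF. AF replicate 3 lay within the PF range, and the log2 ratio was -1.08. The fourth gene of the set, Cyp2c40, no member, measured 3.56, 4.92 and 4.14 FPKM in PF, against 3.14, 1.09 and 3.55 FPKM in AF and did not pass the test (log2 ratio -0.70, limma adjusted p = 0.505). The run of adjacent genes from Cyp2c67 to Cyp2c69 thus held log2 ratios of -2.05, 0.41, -0.70 and -1.08, and the genes on either side, Cyp2c39 and Cyp2c37, 0.58 and 1.79.

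Cyp2c44, an epoxygenase also found in kidney, measured 93.5, 109 and 120 FPKM in PF, against 73.1, 84.1 and 86.6 FPKM in AF. All AF values were below the PF values, but the PF mean was only 1.32 times the AF mean (log2 ratio -0.40). Among the 7 members without overlap this was the smallest ratio. Cyp2c38, the remaining paralog of Cyp2c29, did not pass the test (2.61, 0.96 and 3.82 FPKM in PF, 2.73, 1.98 and 6.58 in AF, limma adjusted p = 0.751). Its entry pooled 1 known and 11 assembled transcripts. Cyp2c65 was listed at 0 in 8 of 9 libraries and was not tested.

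**Figure D3:**
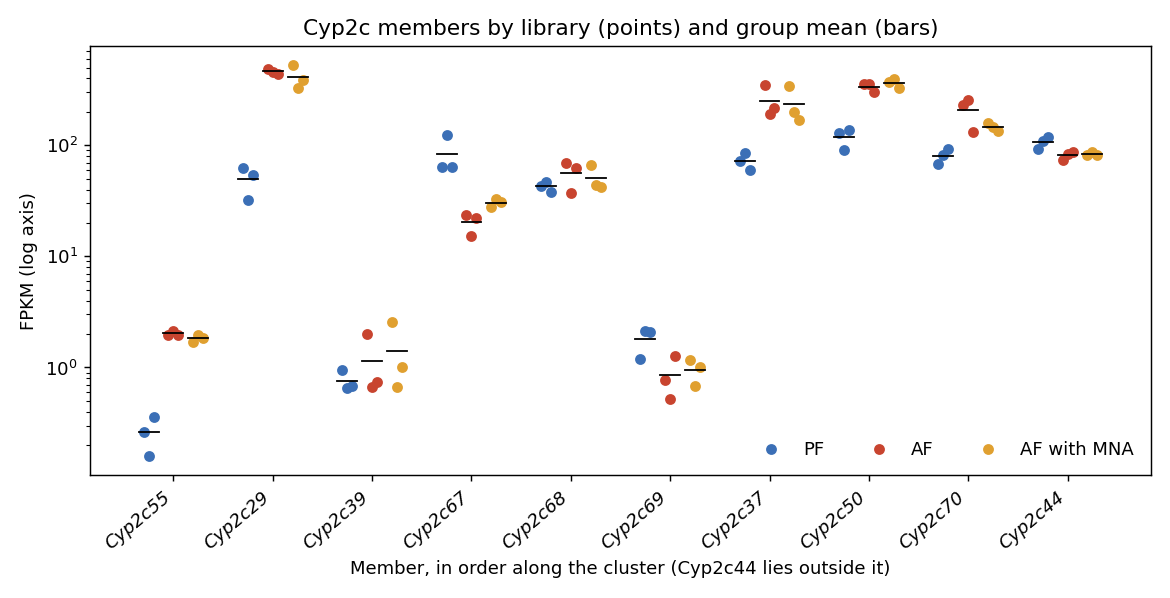
FPKM of the 10 members on a log axis, 3 libraries a group as points and the group mean as a bar. The PF and AF points are apart for Cyp2c29, Cyp2c37, Cyp2c44, Cyp2c50, Cyp2c55, Cyp2c67 and Cyp2c70, and those of AF and AF with MNA overlap except for Cyp2c67 and Cyp2c55.

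The second comparison asked whether these levels differed in alcohol-fed mice that received MNA. It shares the AF libraries with the contrast on which the members were chosen, so the tests of members in it are a description. None of the 10 members passed the threshold of the study's methods (unadjusted p under 0.05 with a log2 ratio above 1 or below -1), which 1.98% of 12214 tested genes did. None had a limma adjusted p under 0.05, against 0.0491% of all genes, and 1 member, Cyp2c67, had an unadjusted p under 0.05, against 5.22% of all genes. The median log2 ratio was -0.02 over the members and 0.01 over all genes.

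Cyp2c67 measured 27.8, 32.6 and 30.6 FPKM in AF with MNA. All values stood above the AF range of 15.3 to 23.5 FPKM and below the PF range, and the ratio to AF was 1.498 (log2 ratio 0.58). On the log2(FPKM + 1) scale the difference was 0.58 ± 0.19 (SE) with a 95% interval of 0.13 to 1.03 (limma adjusted p = 0.94). Cyp2c67 was chosen with these AF values, so nothing is read from this interval. The ratio of Cyp2c67 to Cyp2c68 was 0.420, 0.740 and 0.729, above that of the AF libraries. The other member without overlap was Cyp2c55, at 1.70, 1.95 and 1.86 FPKM, just below AF (log2 ratio -0.14, limma adjusted p = 0.98). Of all tested genes, 10.1% did not overlap between AF with MNA and AF.

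Cyp2c29 measured 524, 326 and 385 FPKM in AF with MNA, on both sides of the AF range. The 95% interval of the difference to AF on the log2(FPKM + 1) scale ran from -0.70 to 0.30 (limma adjusted p = 0.98). Cyp2c70 measured 158, 146 and 134 FPKM, of which all lay within the wide AF range, with an interval of -1.08 to 0.19 (limma adjusted p = 0.965). Intervals were narrowest for Cyp2c55 (-0.35 to 0.16), Cyp2c44 (-0.27 to 0.36) and Cyp2c50 (-0.27 to 0.50). They were widest for Cyp2c39 (-0.69 to 1.00) and Cyp2c37 (-0.93 to 0.71). At the low levels of Cyp2c55, Cyp2c39 and Cyp2c69 the added 1 FPKM shrinks differences on this scale, so their intervals do not compare with the others.

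Cyp2c37 measured 344, 200 and 168 FPKM in AF with MNA, and Cyp2c50 374, 396 and 327 FPKM. Both overlapped with their AF values. Cyp2c44 measured 82.1, 87.5 and 81.1 FPKM, and Cyp2c68 66.2, 44.04 and 42.0 FPKM. The low-level members Cyp2c39 (2.58, 0.67 and 1.01 FPKM) and Cyp2c69 (1.16, 0.68 and 1.02 FPKM) also overlapped with AF. Without AF replicate 3 and AF with MNA replicate 1, the libraries high in intron signal, no member passed the threshold either. Of all genes, 470 did.

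**Figure D4:**
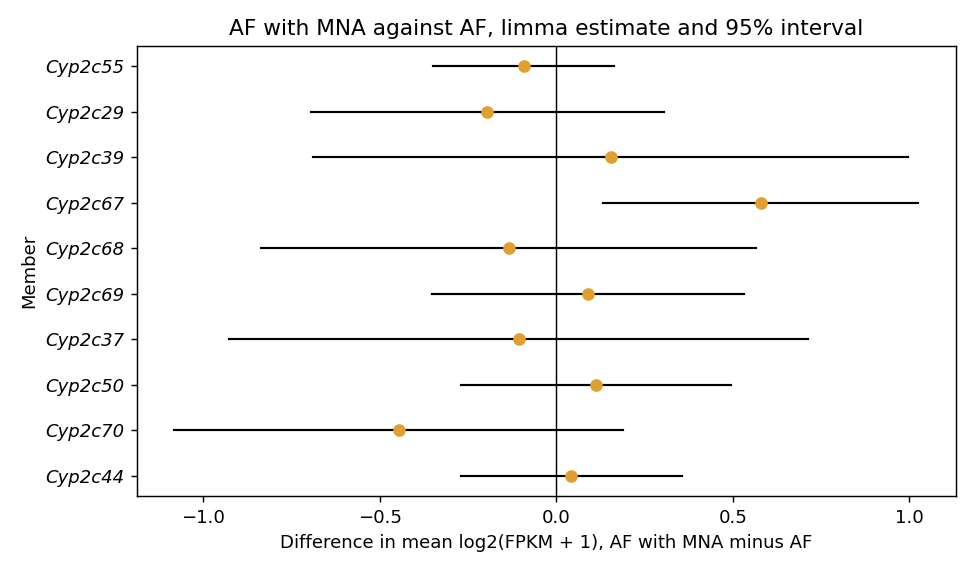
Difference between AF with MNA and AF in mean log2(FPKM + 1) for each member, with the limma 95% interval as a line. The interval of Cyp2c67 (0.13 to 1.03, limma adjusted p = 0.94) lies above 0 and the other 9 intervals include 0. The members were chosen on a contrast with the same AF libraries, so the intervals are a description and nothing is read from them.

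AF with MNA was also set beside PF. Since the members were chosen with the PF libraries, their values in this contrast are given as a description without a test. The AF with MNA mean of Cyp2c29 was 8.30-fold the PF mean (log2 ratio 3.05), that of Cyp2c55 7.06-fold (2.82) and that of Cyp2c50 3.07-fold (1.62). The log2 ratio was 1.71 for Cyp2c37, 0.86 for Cyp2c70 and -1.47 for Cyp2c67. Cyp2c44 (-0.36) and Cyp2c69 (-0.92) were lower than PF without overlap, and Cyp2c39 (0.90) and Cyp2c68 (0.25) overlapped with PF. Without overlap with PF stood 8 members, against 21.4% of all genes, and nothing is read from this count.

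Of the non-members, Cyp2c54 was upregulated 3.69-fold (limma adjusted p = 0.00661, where 0.432% of 12276 tested genes had an adjusted p under 0.05, and 0.143 with the block and 0.286 with the covariate), and Cyp2c38 passed the unadjusted threshold (9.05, 4.24 and 5.63 FPKM in AF with MNA, log2 ratio 1.36, limma adjusted p = 0.288). Cyp2c38 no longer passed without PF replicate 2 (0.97) or without AF with MNA replicate 1 or 3.

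**Figure D5:**
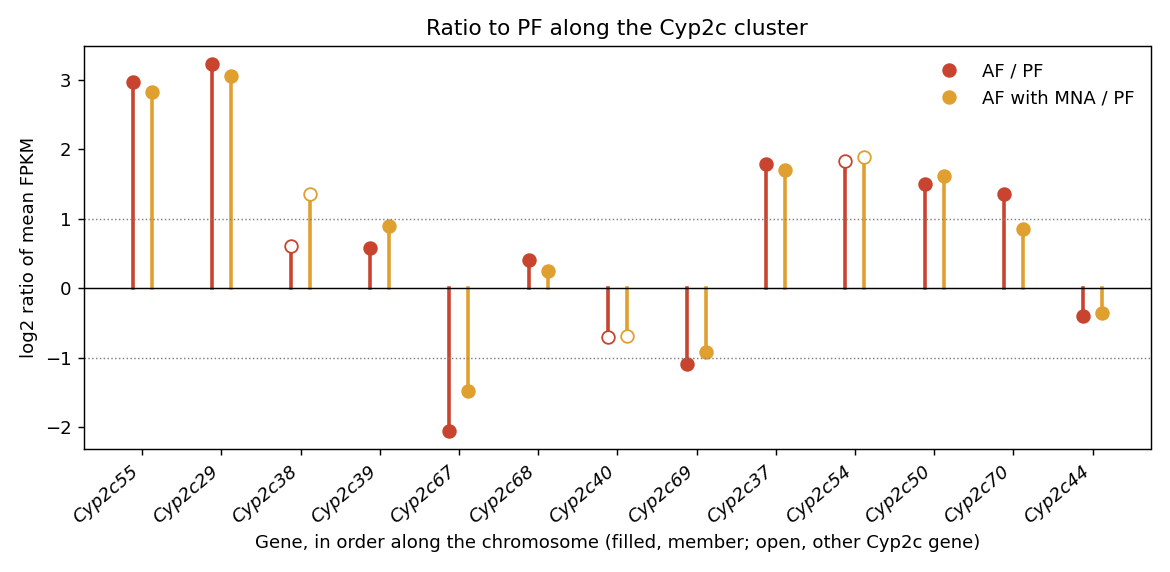
Log2 ratio of mean FPKM to PF for 13 Cyp2c genes in chromosomal order, AF and AF with MNA side by side, with filled points for members and open points for the other Cyp2c genes. Values in AF run from 3.22 in Cyp2c29 to -2.05 in Cyp2c67, and the 3 genes below 0 inside the cluster lie in the run from Cyp2c67 to Cyp2c69.

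The rest of the arachidonate pathway was followed with a list of 33 genes, of which 21 were tested. Between AF and PF, 4 passed the threshold upwards (Cyp2j9, Cyp4a14, Ephx1 and Ltc4s) and 2 downwards (Cyp4a12a and Cyp4a12b), against 4.3% of all genes in either direction. Ephx1, the microsomal epoxide hydrolase, measured 66.3 ± 9.67 FPKM in PF, 195 ± 64.3 in AF and, with MNA, 206 ± 13.0 (n = 3 each). Between AF and PF its limma adjusted p was 0.117. Ephx2, the soluble epoxide hydrolase, passed in no comparison and measured 244 ± 46.4 FPKM in PF, 163 ± 13.4 in AF and, with MNA, 230 ± 39.3. Its log2 ratio was -0.58 between AF and PF and 0.49 between AF with MNA and AF (limma adjusted p = 0.333 and 0.94). The omega-hydroxylase Cyp4a12b, which turns arachidonic acid into hydroxyeicosatetraenoic acids, measured 24.2 ± 9.10 FPKM in PF, 2.05 ± 0.927 in AF and, with MNA, 5.33 ± 4.37 and fell from PF to AF (log2 ratio -3.56, limma adjusted p = 0.0283). The adjusted p of Cyp4a12b was 0.0575 to 0.0991 when PF replicate 1 or 2 or any 1 of the AF replicates was left out. It was 0.0758 for every gene above 0, 0.0804 with the block, 0.115 with all 9 libraries in the fit and 0.318 with the covariate. Its near copy Cyp4a12a had a log2 ratio of -3.13 (limma adjusted p = 0.0999), and reads of the pair may be shared.

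The fatty acid hydroxylase Cyp4a14 had a log2 ratio of 1.94 between AF and PF (limma adjusted p = 0.155). The P450 Cyp2j9 (1.22, adjusted p = 0.145) and the leukotriene synthase Ltc4s (1.79, adjusted p = 0.19) were at most 2.58 FPKM on average in any group. Between AF and PF, Cyp4a14 did not pass with the library-size covariate, and Cyp2j9 and Ltc4s did not with the limma coefficient as the fold change. None of the 21 genes passed between AF with MNA and AF, but without AF with MNA replicate 1 there were 3 (Cyp2j9 downwards, Cyp4a12a and Cyp4a12b upwards). Between AF with MNA and PF, 4 passed upwards (Cyp4a10, Cyp4a14, Ephx1 and Ltc4s) and 2 downwards (Cyp4a12a and Cyp4a12b), against 1.94% and 1.95% of all genes, with limma adjusted p under 0.05 for Ephx1 (0.0173) and Cyp4a14 (0.0395). With the block these were 0.158 and 0.221, and with the covariate 0.307 and 0.417. The adjusted p of Ephx1 was also above 0.05 without PF replicate 2 or AF with MNA replicate 2 or 3 (0.0542 to 0.063), and that of Cyp4a14 for every gene above 0 (0.079) and without any 1 of the AF with MNA replicates or PF replicate 2 or 3 (0.0564 to 0.126). In this comparison Cyp4a12a no longer passed when any 1 of the PF replicates was left out or at a pseudocount of 0.1. Cyp4a12b did not pass without PF replicate 1 or 2, nor Cyp4a10 with the library-size covariate or Ltc4s with the limma coefficient as the fold change.

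Of 18 regulators and genes of electron supply, 1 passed upwards (Cux2) and 1 downwards (Onecut1) between AF and PF, both transcription factors with limma adjusted p of 0.357 and 0.293, against 4.3% of all genes in either direction. Cux2 no longer passed without PF replicate 1 or 2 or with the limma coefficient as the fold change and was not called without AF replicate 1, and neither gene passed with all 9 libraries in the fit or with the library-size covariate. Nr1i3 measured 13.2 ± 2.52 FPKM in PF, 27.0 ± 23.5 in AF and, with MNA, 30.4 ± 15.0. The AF libraries varied more than the means differed, and the log2 ratio to PF went from 1.04 to 0.03 without AF replicate 3, a library high in intron signal. Nr1i3 passed only between AF with MNA and PF (log2 ratio 1.21, limma adjusted p = 0.273), not without PF replicate 1 or 3 or AF with MNA replicate 2, with all 9 libraries in the fit or with the library-size covariate. Nr1i2 (6.81 ± 1.92, 6.09 ± 0.595 and 6.81 ± 0.728 FPKM) and Hnf4a (46.7 ± 8.30, 55.1 ± 22.6 and 56.3 ± 2.71) passed in no comparison. Por, the reductase that supplies electrons to P450 enzymes, measured 91.0 ± 24.7, 162 ± 36.7 and 152 ± 29.8 FPKM. It did not overlap between AF and PF but did not reach the ratio threshold (log2 ratio 0.83, limma adjusted p = 0.325), which it passed without PF replicate 2 (1.05) or AF replicate 3 (1.00). Foxa2 passed upwards between AF with MNA and AF (limma adjusted p = 0.94) and Bcl6 downwards between AF with MNA and PF (adjusted p = 0.216), and neither passed with the library-size covariate.

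Outside the 10 members, the genes whose pattern over the 9 libraries was most like that of Cyp2c29, among 12199 genes by Pearson r of log2(FPKM + 1), were Adam11 (0.989), Cyp2a5 (0.982), Agt (0.980), Cyp2b10 (0.980) and Cyp2a4 (0.974). Of the members themselves, Cyp2c50 and Cyp2c55 each had an r of 0.98 with Cyp2c29. Cyp2b10, the P450 best known for induction through CAR, measured 0.28, 0.22 and 3.33 FPKM in PF, 260, 195 and 133 in AF, and with MNA 183, 122 and 103. Cyp2a5, a coumarin hydroxylase, measured 153 to 189 FPKM in PF, 1298 to 1414 in AF and, with MNA, 979 to 1477. For Cyp2c67 the closest outside the members were Cnppd1 (0.971), Col27a1 (0.967), 2310039H08Rik (0.961), Gm23686 (0.961) and Omd (0.960). All 9 libraries share the difference of PF from the other groups, which weighs in each of these values.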

How the data were processed

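Liver RNA of 3 PF, 3 AF and 3 AF with MNA libraries was depleted of ribosomal RNA and sequenced from both ends in strand-specific libraries. FPKM values per gene and per lncRNA transcript were computed by the authors with StringTie, and the gene values are rounded. The submitters' processing notes name cutadapt 1.9, HISAT2, TopHat, StringTie 1.3.4 and edgeR without roles, and the build is not given in the sources used here. The deposited lncRNA table also holds read coverage as a signal, and the deposited circRNA table holds junction read counts and the same counts scaled by a constant per library. Entries with a known transcript and name were used and 25806 left out. Of the known lncRNA transcripts, 7841 were found in GENCODE M21 and 7708 had the same start and end, so GRCm38 coordinates were used.

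Tests ran on log2(FPKM + 1) for genes whose mean over both groups reached 0.5 FPKM, with limma 3.58.1 (R 4.3.3, two-sided, intensity trend) and Benjamini-Hochberg adjustment over all tested genes. The threshold was that of the study's methods, an unadjusted p under 0.05 and a log2 ratio beyond 1. The script was tested on simulated data. The members and lists were chosen with earlier results of these data known, and values of members against PF are given without a test. Tests of members between AF with MNA and AF use AF values from that choice and are a description. Each member was named, and of the other lists the genes past the threshold (at most 5 a list and comparison) and always Nr1i2, Nr1i3, Hnf4a and Por. Ephx2 was added after the data were seen. The 5 genes most alike to Cyp2c29 and Cyp2c67 were named. Coding sequences were aligned end to end with Biopython 1.88. The gene table gives no counts, so precision was judged from the spread between libraries. Alternatives were other pseudocounts, filters, scaling and models, each library left out, and, added after the data were seen, the removal of the pair of libraries high in intron signal.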

Additional observations from a re-analysis of the deposited data

How the results depend on the processing

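The p-values rest on 3 libraries a group and on FPKM without counts, so depth per gene is unknown, and differences within the Cyp2c67 and Cyp2c37 sets depend on how shared reads were assigned. The 10 members had 0 calls between AF with MNA and AF under every alternative run. In the main fit 1.98% of all 12214 tested genes passed, and nothing is read from the 0 calls of 10 genes.

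Counts over all genes between AF and PF, AF with MNA and AF, and AF with MNA and PF were 1183, 676 and 1105 for every gene above 0, 265, 81 and 228 at a minimum of 2 FPKM, 335, 104 and 252 without moderation and with the Ballgown library-size covariate, and 249, 99 and 229 with the limma coefficient as the fold change. Fewer or more genes were tested under the filters. With the limma coefficient the p-values were the same (1433, 637 and 1776 genes at an unadjusted p under 0.05). Only the fold change differed, being taken on the log2(FPKM + 1) scale. For the covariate setting the cause was not tested. The regulators past the threshold between AF and PF numbered 1 at the 2 FPKM minimum, 0 with all 9 libraries in the fit, 0 with the covariate and 1 with the limma coefficient. With the covariate they were 0 between AF with MNA and AF and 1 between AF with MNA and PF.

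Leaving out each replicate gave 1 to 3 regulators between AF and PF. Between AF with MNA and AF it gave 211 to 367 genes (367 without AF replicate 3, against 242), 0 to 1 other Cyp2c genes (Cyp2c38, without AF replicate 3), 0 to 3 arachidonate genes and 1 to 3 regulators. Between AF with MNA and PF it gave 1 to 2 other Cyp2c genes and 1 to 3 regulators. Without AF replicate 3, 764 genes passed between AF and PF (36.6% upwards against 45.4%). Log2 ratios of AF with MNA to AF turned sign when a replicate was left out, none past the threshold on either side except Nr1i3 without AF replicate 3. They ran from -0.454 to 0.216 for Cyp2c37, -0.436 to 1.01 for Cyp2c39, -0.03 to 0.088 for Cyp2c44, -0.396 to 0.026 for Cyp2c68, -0.09 to 0.564 for Cyp2c69, -0.017 to 0.118 for Cyp2c54, -0.291 to 1.182 for Nr1i3, -0.277 to 0.229 for Hnf4a and -0.263 to 0.047 for Por. Nr1i2 ran from -0.315 to 0.086 between AF and PF and from -0.153 to 0.247 between AF with MNA and PF.

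With libraries scaled to the same median, Hnf4a was -0.01 between AF with MNA and AF and Nr1i2 0.023 between AF with MNA and PF, and with the limma coefficient Nr1i2 was 0.022. Without AF replicate 3 and AF with MNA replicate 1 together, an alternative added after the data were seen, 470 genes passed between AF with MNA and AF, with 1 other Cyp2c gene (Cyp2c38), 3 arachidonate genes (Cyp2j9, Cyp4a12a and Cyp4a12b) and 4 regulators. Cyp2c39 was then -0.668, Hnf4a -0.238 and Cyp2c54 -0.066.

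Libraries with the same replicate number did not deviate together (correlations of -0.08 to 0.061 over 12252 genes), so the numbers were not taken as pairs. With the replicate number as a replicate block, 0 members and 260 of all genes passed between AF with MNA and AF. With that block, 0 genes had an adjusted p under 0.05 between AF with MNA and PF (1452 unadjusted), against 53, and 18 between AF and PF, against 40. With no moderation and the covariate, 0, 1 and 0 genes had an adjusted p under 0.05 between AF and PF, AF with MNA and AF, and AF with MNA and PF, against 40, 6 and 53 (1407, 777 and 1228 at an unadjusted p under 0.05). The adjusted calls of Cyp2c54, Ephx1, Cyp4a12b and Cyp4a14 were lost both there and with the block.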

Other observations

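The circRNA table held back-splice junction reads of 6 members, summed over the 3 libraries of a group and given here without a test. Cyp2c29 had 0 of 5714 junction reads in PF, which allows a share of up to 0.0525% by counting error alone. It had 11 of 5840 in AF (7, 2 and 2 by library) and, with MNA, 8 of 6405 (2, 5 and 1), so 7 of the 11 came from AF replicate 1. Of these reads, 10 in AF and 6 in AF with MNA came from a single circRNA of 2 exons (chr19:39321551-39325093, build GRCm38, within the gene). Cyp2c50 had 0 junction reads in PF, 10 in AF (2, 2 and 6 by library), of which 6 came from AF replicate 3, and 1 in AF with MNA. Of the members, Cyp2c70 had the most junction reads, 24 in PF, 24 in AF and 12 in AF with MNA, from 5 circRNAs. Cyp2c37 had 2, 8 and 0, Cyp2c67 3, 0 and 0, and Cyp2c68 0, 0 and 4 in PF, AF and AF with MNA. The 10 members together had 29, 53 and 25 junction reads from 16 circRNAs.

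Inside the Cyp2c cluster the authors' lncRNA table placed 15 transcripts. Their summed level was 16.3 FPKM in AF replicate 3 and 13.5 in AF with MNA replicate 1, and 1.98 to 4.84 FPKM in the other 7 libraries. The same pair of libraries had the highest signal of intron transcripts in the whole table (9433 and 8934 FPKM), and the part of these libraries in the lncRNA levels was not tested.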
